A study of Homo sapiens with 102 samples.

Results

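Read counts of 6 genes of the mitochondrial genome were examined in K562 cells treated with drug pairs in droplets. MT-CO1, MT-CO2 and MT-CO3 encode the core subunits of cytochrome c oxidase (complex IV), MT-CYB encodes cytochrome b of the bc1 complex (complex III), and MT-ATP6 and MT-ATP8 encode subunits of the ATP synthase (complex V). The genes were chosen by name, through the Ensembl identifier of each row, and the rule itself uses no measured value. All 6 were found among the 24965 genes of the table, where they make up 6 of 29 genes with an MT- symbol.

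The data came from Combi-Seq, in which single cells share a picolitre droplet with a pair of drugs and a pair of barcode fragments that name the drugs. K562 is an established erythroleukaemia line that carries the BCR-ABL fusion. Each position of a pair held DMSO (the solvent), imatinib (a BCR-ABL kinase inhibitor), trametinib (a MEK inhibitor) or YM115 (so written in the labels, while the study writes YM155, an inhibitor of survivin expression), which gave 16 ordered pairs after 12 h. Every pair was measured in 3 runs of a dT screen and in 3 runs of a Bio screen, the layout with exchanged barcodes. This made 48 in-screen libraries per screen, each of them a pool of the cells of 1 pair, and 3 separate DMSO controls were added per screen. All groups were the same cell line without genetic change, and all in-screen groups shared the droplet incubation. Pairs are written with the first-listed drug first. Which injection source each place stands for was not settled from the labels.

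Mammalian mitochondrial DNA is transcribed into long RNAs from which transfer RNAs are cut, and the messengers between them are released and polyadenylated. The proteins of these 6 genes are built into complexes whose other subunits come from nuclear genes. Both genomes thus supply complexes III, IV and V. Complex III passes electrons to cytochrome c, complex IV hands them to oxygen, and complex V makes ATP from the proton gradient.

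The genes lie on the + strand of chromosome M of GRCh38 and have no intron. MT-CO1 spans 5904 to 7445, MT-CO2 7586 to 8269, MT-ATP8 8366 to 8572, MT-ATP6 8527 to 9207, MT-CO3 9207 to 9990 and MT-CYB 14747 to 15887. MT-ATP8 and MT-ATP6 overlap by 46 bases and MT-ATP6 and MT-CO3 by 1 base, so a read in those bases could be given to either gene. The libraries were primed at the poly(A) tail, the cDNA was fragmented with Tn5, and 59 bases of the messenger were read. A read can therefore lie upstream of the gene end, and the stretch printed here need not be one that was read. The last 59 bases of each gene are shown as a landmark. They run 5′ to 3′ on the + strand of GRCh38 and come from the GENCODE release 29 transcripts. MT-ATP8 ends inside MT-ATP6, so its end need not be a poly(A) end. The annotated ends of the other genes were not compared with poly(A) sites either. Capitals mark the last annotated codon, or for MT-CO3 and MT-CYB the single T that poly(A) addition completes to a stop codon, and for MT-ATP8 the bases it shares with MT-ATP6.
MT-CO1, chrM:7387-7445: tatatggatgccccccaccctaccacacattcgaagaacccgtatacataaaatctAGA
MT-CO2, chrM:8211-8269: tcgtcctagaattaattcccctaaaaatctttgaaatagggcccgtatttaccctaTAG
MT-CO3, chrM:9932-9990: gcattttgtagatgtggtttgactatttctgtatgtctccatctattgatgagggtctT
MT-CYB, chrM:15829-15887: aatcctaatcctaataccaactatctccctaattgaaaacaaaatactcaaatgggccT
MT-ATP6, chrM:9149-9207: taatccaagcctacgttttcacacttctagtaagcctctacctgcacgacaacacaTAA
MT-ATP8, chrM:8514-8572: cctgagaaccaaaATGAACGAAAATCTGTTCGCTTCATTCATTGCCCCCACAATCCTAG

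Some of these letters also occur in the nuclear genome, which carries old copies of mitochondrial DNA. Of all 59-base windows of MT-CO1, 44.2% were identical in a nuclear copy, MTCO1P12 on chromosome 1, and this held for the last 71 windows up to the 3′ end, the printed one included. The share was 40.1% for MT-ATP6, 24.8% for MT-CO3, 20.1% for MT-CO2, 2.68% for MT-ATP8 and 0.369% for MT-CYB. The printed window was also shared for MT-CO2, whose last 8 windows matched MTCO2P12, and was not shared for the other 4 genes. The table listed 60 nuclear copies with 6282 counts in all, which is 0.643% of the 977581 counts of the 6 genes. Most of them fell on MTCO1P12 (3229 counts) and MTCO1P40 on chromosome 17 (1984 counts), followed by MTCO1P2 (229) and MTCYBP18 (159). How reads with several equal matches were counted was not given in the sources used here, so the split between MT-CO1 and its copies is uncertain. If such reads were left out, those from shared windows would be missing from the counts altogether. The 0.643% therefore sets no bound on this uncertainty.

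In-screen dT libraries held 127042 to 759756 counts (median 350752) and Bio libraries 17882 to 780143 (median 231438). All 48 dT and 44 of 48 Bio libraries had at least 1000 detected genes and entered the drug comparisons. The 4 Bio libraries left out were the 3 of Imatinib_Imatinib and run 1 of DMSO_Trametinib. All 12 K562 markers of the list had counts, with a summed median of 34275 CPM (each count scaled to the same library total) in dT and 27242 in Bio. Markers of other blood cells and tissues had counts for 9 of the 12 in the table in dT and 11 of 12 in Bio, with summed medians of 435 and 31.3 CPM. Genes with an MT- symbol took 2.71% to 7.33% of the counts of in-screen dT libraries and 1.62% to 6.87% in Bio.

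Per length, MT-CO3 and MT-CO1 of complex IV led and the complex V genes had few counts. MT-CO3 had 470565 counts per kb of gene over all 102 libraries, MT-CO1 273132, MT-CO2 104499, MT-CYB 99934, MT-ATP6 2720 and MT-ATP8 652. MT-CO3 was the highest of the 6 per kb in 46 of 48 in-screen dT libraries, with MT-CO1 ahead in the other 2. In Bio it led in 37 of 48, with MT-CO1 ahead in 9 and MT-CO2 in 2. The order of MT-CO2 and MT-CYB depended on the libraries, with in-screen medians of 2739 and 2225 CPM per kb in dT and of 3024 and 3716 in Bio. These are levels in a protocol that reads near the 3′ end, so length does not stand for the number of reads a messenger can give. MT-CO1 and MT-CO2, whose last windows are shared with nuclear copies, may have lost reads there, which was not tested. Where reads fell within a gene cannot be seen in counts per gene. As shares of all counts with an MT- symbol, MT-CO1 took 26.8%, MT-CO3 23.5%, MT-CYB 7.25%, MT-CO2 4.55%, MT-ATP6 0.118% and MT-ATP8 0.00858%. For comparison, MT-ND1, a complex I subunit, took 9.26%. MT-RNR2, the large ribosomal RNA, took 18.9%, but 164126 of its 297786 counts came from 1 separate dT control, and without that library its share was 9.52%.

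**Figure D1:**
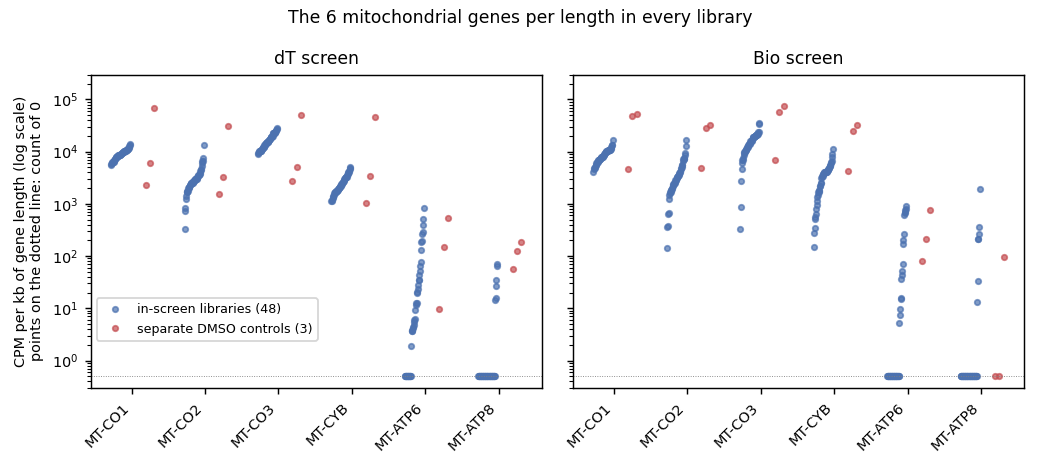
CPM per kb of gene length (log axis) for the 6 mitochondrial genes in every library of the dT screen (left) and the Bio screen (right), with 48 in-screen libraries in blue and 3 separate DMSO controls in red per gene; points on the dotted line had a count of 0. MT-CO1 and MT-CO3 lie highest, and many in-screen libraries have no count of MT-ATP6 (16 of 48 in dT, 30 of 48 in Bio) or MT-ATP8.

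MT-CO1, the catalytic subunit of complex IV, had the steadiest level. In dT its lowest, median and highest in-screen values were 8541, 13660 and 21748 CPM, and in Bio 6168, 12462 and 25326 CPM. MT-CO3, another core subunit of complex IV, ran from 7081 over 12125 to 22610 CPM in dT. In Bio MT-CO3 ran from 264 over 11285 to 27952 CPM, and its lowest values came from the shallow Imatinib_Imatinib libraries (263.5, 677 and 9115 CPM on 8, 17 and 163 counts). MT-CO2, which receives electrons from cytochrome c, spread more widely, at 228, 1874 and 9147 CPM in dT and 98.997, 2069 and 11234 CPM in Bio. MT-CYB, the complex III subunit, lay at 1275, 2539 and 5884 CPM in dT and at 170, 4240 and 12856 CPM in Bio. The median coefficient of variation among the 3 libraries of a pair was 11.3% for MT-CO1, 19.7% for MT-CO3, 33.6% for MT-CYB and 36.8% for MT-CO2 in dT. In Bio it was larger for each gene, at 21.6%, 35.3%, 61.2% and 43.8% in the same order.

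The 16 pairs were put in order of their means. Neighbours overlapped in 15 of 15 cases for MT-CO1, MT-CO2 and MT-CO3 in both screens and for MT-CYB in Bio. For MT-CYB in dT it was 14 of 15. Sorted neighbours lie close by construction, so these counts do not measure how firm the order was. MT-CO1 was highest in DMSO_DMSO in dT (mean 20646 CPM) and lowest in Imatinib_DMSO (9621). The ranges of these 2 pairs were apart, at 19354 to 21748 CPM and 8541 to 10871 CPM. MT-CO2 was highest in DMSO_DMSO in both screens (6305 in dT, 6918 in Bio) and lowest in DMSO_Trametinib in dT (746) and Imatinib_Trametinib in Bio (1176). MT-CYB was highest in DMSO_DMSO (4201) and lowest in Imatinib_YM115 (1607) in dT. For MT-CO3 the top pair was Trametinib_Trametinib in both screens, with 18728 CPM in dT and 18590 in Bio. The 4 pairs with YM115 in first place took the lowest 4 places of MT-CO3 in dT, from 9264 CPM in YM115_Imatinib down to 8158 in YM115_DMSO.

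**Figure D2:**
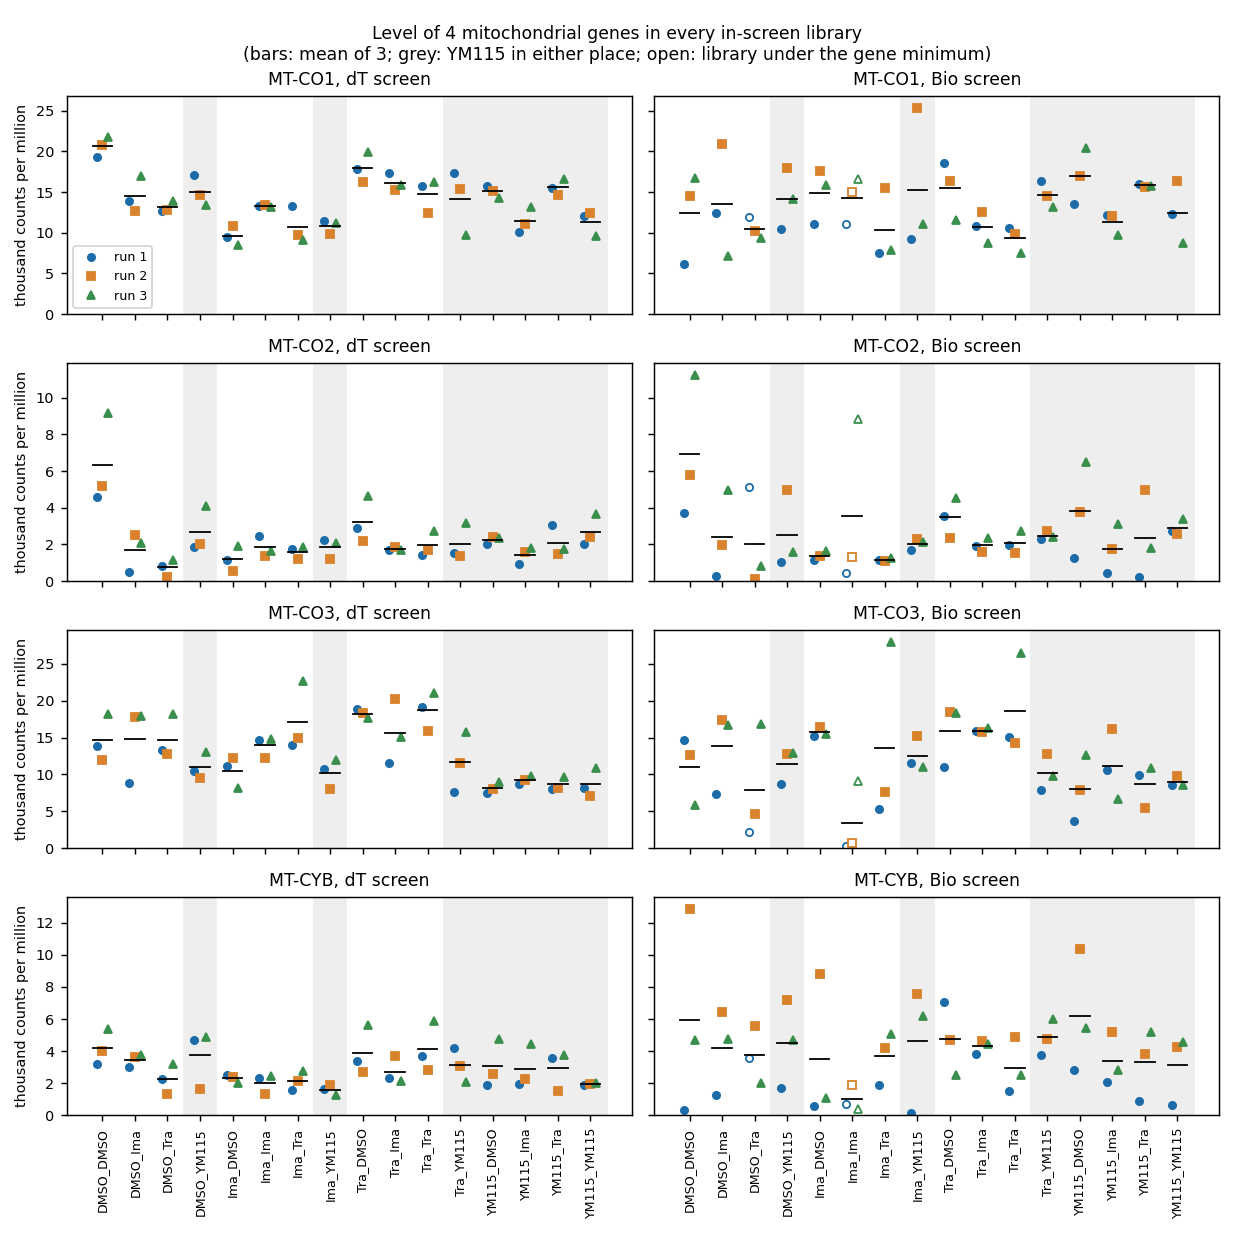
Level (CPM, y axis in units of 1000) of MT-CO1, MT-CO2, MT-CO3 and MT-CYB in each of the 16 ordered pairs (x axis; Ima, imatinib; Tra, trametinib) of the dT screen (left) and Bio screen (right), 1 point per run, with the mean of 3 as a bar, pairs with YM115 shaded and libraries under 1000 detected genes open. MT-CO3 sits low in most shaded pairs, and MT-CO1 and MT-CO2 of dT are highest in DMSO_DMSO.

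To ask how each drug moved these genes, 1 term per drug was fitted over all in-screen libraries of a screen, with the run as a block. A log2 fold change below is the level with the drug, in either place, over the level without it. Values are relative to the other genes of the library, and fewer cells and less RNA per cell cannot be told apart. The study calls the runs biological replicates, and the labels do not say what separates them, so p-values measure the spread between libraries, part of which may be technical.

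With YM115, MT-CO3 was lower in the dT screen. The 21 dT libraries with YM115 had 7081, 9294 and 15751 CPM (lowest, median, highest) and the 27 without it 8106, 14922 and 22610. The ranges overlapped, but 20 of 21 libraries with YM115 lay under the median of those without. In DMSO_DMSO the runs gave 13860, 12015 and 18163 CPM, in YM115_DMSO 7497, 8058 and 8919, in DMSO_YM115 10534, 9561 and 13022, and in YM115_YM115 8112, 7081 and 10915. MT-CO3 fell by 0.57 on the log2 scale (SE 0.0919, adjusted p = 6.5e-05, quasi-likelihood test of edgeR, Benjamini-Hochberg adjusted over 3930 genes), while the median of all genes tested was 0.21, which puts MT-CO3 at -0.79 relative to that median. Within runs, the log2 ratio of mean CPM with and without YM115 was -0.67, -0.78 and -0.58. It was the 1 of 5 tested genes past an adjusted p of 0.05 for this drug, where the background over all genes was 2.62%. The call was kept under 10 of 12 alternatives and lost without the filter on low counts (-0.51, adjusted p = 0.105) and in single-drug libraries alone (-0.57, adjusted p = 0.480).

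For MT-CO1 the difference was smaller and did not pass. With YM115 the dT libraries had 9579, 13349 and 17373 CPM of MT-CO1 and without it 8541, 13901 and 21748, and the ranges overlapped widely. The log2 fold change was -0.18 (SE 0.0927, adjusted p = 0.377 in the edgeR fit), but with DESeq2's test, whose size factors put the median of all genes at 0.02, it was -0.39 with an adjusted p of 0.0087. Against all mitochondrial counts MT-CO1 went the other way. It took 21.9%, 35.7% and 43.3% of MT- counts with YM115 (lowest, median, highest) and 18.0%, 28.5% and 40.1% without. In the fit with mitochondrial counts as the library size it rose by 0.27 (SE 0.0703, adjusted p = 0.0169, edgeR), as 1 of 5 genes against a background of 4.83%, while MT-CO3 had -0.12 (adjusted p = 0.467). The median of all genes in this fit was 0.63, and 150 of its 190 calls were higher, so MT-CO1 lay below the median gene. Without the replicate block MT-CO1 had an adjusted p of 0.0599, and without run 1 or run 2 it was 0.207 and 0.161. The 6 genes are themselves a median of 71.5% of this denominator in dT and 70.0% in Bio, so it is not independent of them. MT- counts took a median of 3.88% of the library with YM115 and 5.06% without, at median totals of 390691 and 316995 counts. With log2 total counts as a covariate MT-CO3 was at -0.61 (adjusted p = 2.4e-04, edgeR) and MT-CO1 at -0.25 (adjusted p = 0.157), and the fit against mitochondrial counts was not run with this covariate. The median of all 5254 genes tested with the covariate was -0.10, against 0.21 in the main fit. A distance from the median gene therefore depends on the model.

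In the Bio screen the same genes did not pass. MT-CO3 had 3638, 9885 and 16222 CPM in 21 libraries with YM115 and 4676, 15501 and 27952 in 23 without, and again 20 of 21 lay under the median of the others. The log2 fold change was -0.29 (SE 0.204, adjusted p = 0.548 in the edgeR fit), beside a median of 0.60 over all genes tested, which puts it at -0.89 relative to that median. That median was 0.05 over 2635 genes with log2 total counts as a covariate, so the distance depends on the model. The libraries with YM115 had a median of 2215 detected genes and those without 1636. Within runs the log2 ratios of mean CPM of MT-CO3 were -0.48, -0.23 and -0.80. MT-CO1 lay the other way, at 8695, 14102 and 25326 CPM with YM115 and 6168, 11072 and 20912 without (log2 fold change 0.30, SE 0.157, adjusted p = 0.330), or -0.30 relative to the median of all genes. With DESeq2's size factors the value of MT-CO1 was -0.039, so its direction depended on the scaling. In all, 0 of 5 genes passed for YM115 in Bio with edgeR (0 at an unadjusted p under 0.05), against a background of 2.74%. DESeq2 also called 0 of 5 (1 unadjusted), beside 112 of all 1754 genes (268 unadjusted). Relative to mitochondrial counts 0 of 5 passed as well (background 2.85%, 1 unadjusted, beside 288 of all 1754 genes unadjusted). MT-CO1 was at 0.34 (adjusted p = 0.1199, edgeR) and MT-CO3 at -0.31 (adjusted p = 0.384). The median of all genes was 0.66 there.

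The ratio of MT-CO3 to MT-CO1 within a library is free of the scaling between libraries. Its median by run with YM115 was 0.618, 0.651 and 0.975 in dT, against 1.05, 1.13 and 1.05 without. In Bio it was 0.700, 0.598 and 0.739 with YM115 and 1.37, 0.906 and 1.84 without. The median was lower with YM115 in each of the 6 runs, and the gap was small in run 3 of dT. The libraries without YM115 include the other drugs, and with imatinib the median ratio was higher than without it in each of the 6 runs (0.938, 1.13 and 1.05 against 0.676, 0.651 and 0.975 in dT), with trametinib in 5 of 6. In solvent alone the ratio was 0.716, 0.577 and 0.835 in the runs of dT and 2.39, 0.872 and 0.351 in those of Bio. In dT the pairs with YM115 lay on both sides of DMSO_DMSO, with a mean of 0.544 in YM115_DMSO, 0.748 in DMSO_YM115 and 0.795 in YM115_YM115 against 0.709 in DMSO_DMSO (n = 3 each). The ratio was not tested.

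**Figure D3:**
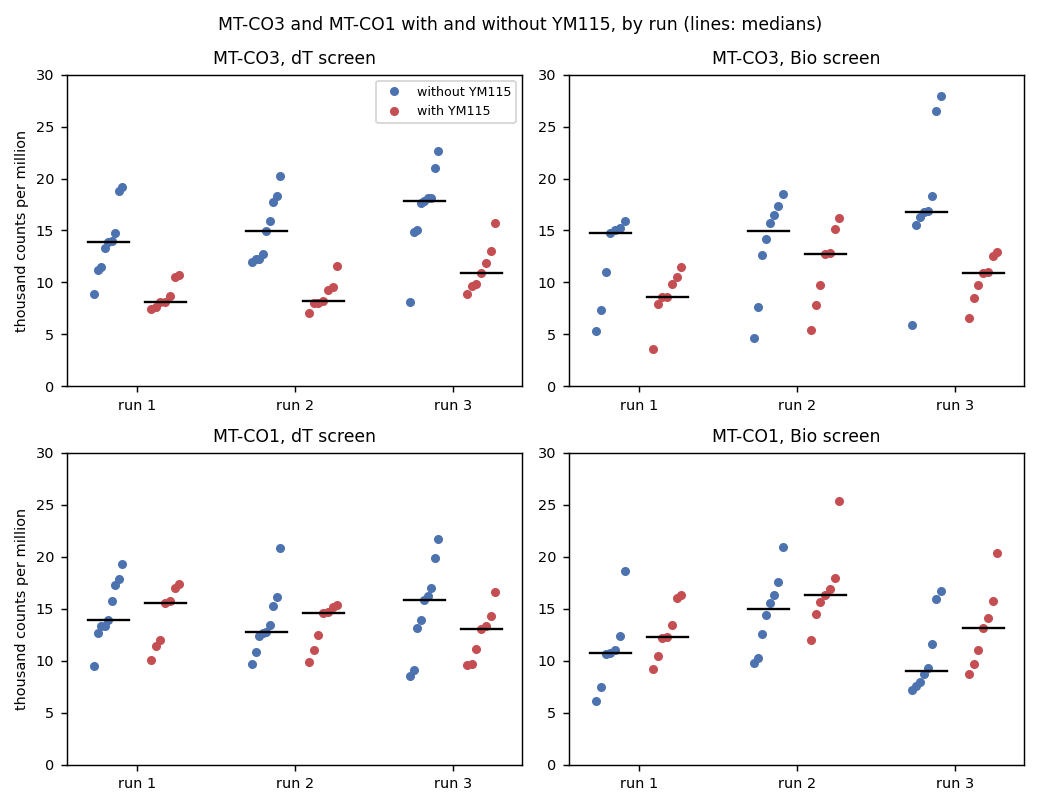
Level (CPM, y axis in units of 1000) of MT-CO3 (top) and MT-CO1 (bottom) in libraries without (blue) and with YM115 (red), by run of the dT screen (left) and Bio screen (right), 1 point per library that entered the fits, with medians as lines. MT-CO3 medians are lower with YM115 in each run, whereas MT-CO1 overlaps throughout and its medians with YM115 are the higher in all Bio runs.

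The effect of YM115 was compared between the screens in 1 fit of both, since a call in 1 screen and none in the other is no difference. The term for Bio minus dT was 0.26 for MT-CO3 (SE 0.227, adjusted p = 0.567, edgeR) and 0.51 for MT-CO1 (SE 0.173, adjusted p = 0.0602). None of 5 genes passed for YM115 (1 at an unadjusted p under 0.05, background 6.59%), for imatinib (1 unadjusted, background 5.84%) or for trametinib (0 unadjusted, background 4.59%). Of all 4705 genes tested, 970, 1014 and 896 lay under that unadjusted p, in the same order. For imatinib the term of MT-CO1 was 0.37 (SE 0.174, adjusted p = 0.195).

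With imatinib, MT-CO1 and MT-CO2 were lower in the dT screen, and the result was lost without 1 of the 16 pairs. MT-CO1 had 8541, 12675 and 17284 CPM in 21 libraries with imatinib and 9579, 15375 and 21748 in 27 without, with 18 of 21 under the median of the others. It fell by 0.32 on the log2 scale (SE 0.0929, adjusted p = 0.0430, edgeR), and the log2 ratios within runs were -0.33, -0.34 and -0.26. MT-CO2 had 496, 1721 and 2501 CPM with imatinib and 228, 2168 and 9147 without. It fell by 0.77 on the log2 scale (SE 0.228, adjusted p = 0.0489), with -0.55, -0.51 and -0.96 within runs. These were 2 of 5 genes tested, against a background of 2.88%, and the median of all genes was 0.07. DESeq2 called 0 of 5 (2 at an unadjusted p under 0.05), beside 149 of all 3930 genes (501 unadjusted). Without the replicate block the adjusted p of edgeR was 0.0789 for MT-CO1 and 0.0935 for MT-CO2. MT-CYB had 1275, 2296 and 4475 CPM with imatinib and 1349, 3172 and 5884 without (log2 fold change -0.41, SE 0.175, adjusted p = 0.238).

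Both calls were lost without the 3 libraries of DMSO_DMSO. In dT these held 19354, 20836 and 21748 CPM of MT-CO1 in runs 1, 2 and 3. For MT-CO2 they held 4607, 5162 and 9147 CPM, where the highest of the other 45 dT libraries, run 3 of Trametinib_DMSO, had 4623. They were shallow, with 180378, 174365 and 198316 counts. Without them the log2 fold change with imatinib was -0.18 for MT-CO1 (adjusted p = 0.568, edgeR) and -0.33 for MT-CO2 (adjusted p = 0.778), and 0 of 5 genes passed. In the Bio screen MT-CO2 was at -0.79 (SE 0.360, adjusted p = 0.262) and MT-CO3 at 0.36 (SE 0.198, adjusted p = 0.405). There 0 of 5 passed with edgeR (1 unadjusted), at a background of 2.39%. DESeq2 also called 0 of 5 (1 unadjusted), beside 104 of all 1754 genes (239 unadjusted).

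With trametinib no gene of the 6 passed. MT-CO3 came nearest in dT, with 7623, 15026 and 22610 CPM in 21 libraries with the drug and 7081, 10750 and 18163 in 27 without. Its log2 fold change was 0.31 (SE 0.0927, adjusted p = 0.0801, edgeR) beside a median of 0.23 over all genes, and the ratios within runs were 0.34, 0.44 and 0.44. MT-CO2 was at -0.45 (SE 0.227, adjusted p = 0.406). Of 5 genes tested 0 passed in dT (1 unadjusted, background 1.37%) and 0 in Bio (0 unadjusted, background 2.22%) with edgeR. DESeq2 called 0 in both (1 and 2 unadjusted). Over all genes it called 94 of 3930 in dT (446 unadjusted) and 77 of 1754 in Bio (214 unadjusted).

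Relative to all mitochondrial counts, imatinib and trametinib gave 0 calls in either screen. For imatinib the backgrounds were 3.05% in dT (2 of 5 genes unadjusted) and 2.34% in Bio (1 unadjusted), with MT-CO2 at -0.55 in dT (adjusted p = 0.172), and at -0.81 in the Bio screen (adjusted p = 0.220), and MT-CO3 at 0.22 in dT (adjusted p = 0.165). For trametinib they were 1.27% in dT (2 unadjusted) and 2.17% in Bio (0 unadjusted), with MT-CO2 at -0.52 (adjusted p = 0.257) and MT-CO3 at 0.22 (adjusted p = 0.225) in dT. At an unadjusted p under 0.05 (edgeR), imatinib had 553 of all 3930 genes in dT and 261 of 1754 in Bio. Trametinib had 487 and 213. DESeq2 was not run with this library size. The remaining log2 fold changes of MT-CO1, MT-CO2, MT-CO3 and MT-CYB over both scalings lay between -0.53 and 0.30, and none passed. Their directions were not stable, since 20 of these 28 values turned under at least 1 alternative, where they ran from -1.28 to 0.85.

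**Figure D4:**
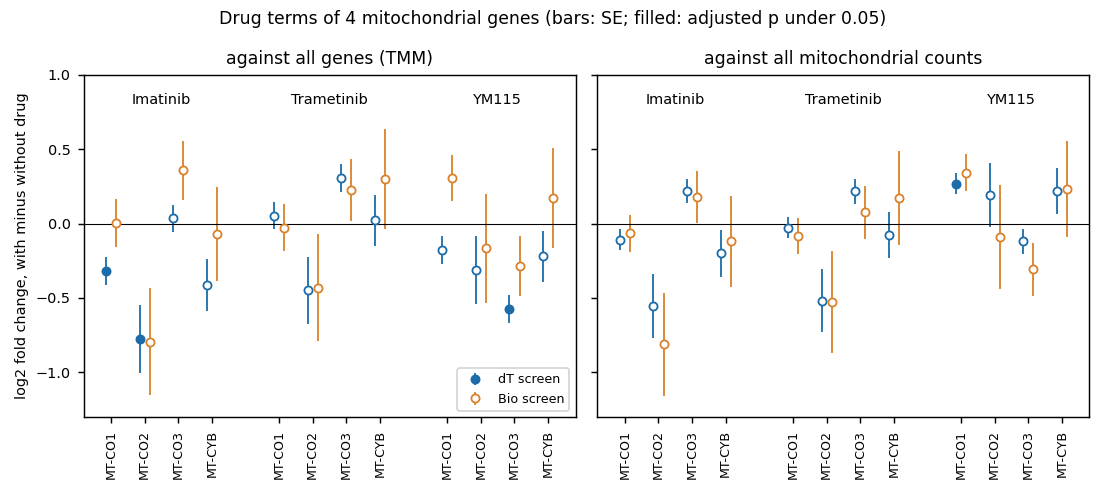
Log2 fold change with each drug for MT-CO1, MT-CO2, MT-CO3 and MT-CYB in the dT (blue) and Bio (orange) screens, scaled on all genes by TMM (left) or on all mitochondrial counts (right); bars are SE, and filled points have an adjusted p under 0.05. Filled points are MT-CO1 and MT-CO2 with imatinib and MT-CO3 with YM115 on the left, and MT-CO1 with YM115 on the right, all of dT.

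Few calls were made for the place of a drug or for its pairing. First-listed against second-listed drugs gave 0 of 5 genes in dT (1 unadjusted) at a background of 10.7%, with MT-CO1 nearest (adjusted p = 0.0879, edgeR). In Bio 1 of 6 passed at a background of 21.1%, which was MT-ATP8 (adjusted p = 0.0194). That call rested on 90 counts in 7 of 48 libraries, of which 34 were in run 2 of Imatinib_DMSO, and without this library or without any 1 run 0 genes passed. MT-ATP8 itself was filtered out of these fits for its low counts, other than the one without run 3, where its adjusted p was 0.0870. Terms for pairs of different drugs, which measure a departure from additive log2 effects, gave 0 of 5 genes in dT (1 unadjusted, background 9.8%), with MT-CO2 nearest (adjusted p = 0.106). They gave 0 of 6 in Bio (1 unadjusted, background 14%), with MT-ATP6 nearest (adjusted p = 0.0793). A second portion of the same drug gave 0 of 5 in dT (0 unadjusted, background 5.84%) and 0 of 6 in Bio (0 unadjusted, background 5.4%), where imatinib could not be fitted because its libraries were too shallow. At an unadjusted p under 0.05 (edgeR), all genes tested gave 1038 of 3930 for listed position in dT. For pairs of different drugs they gave 2020 of 6263 in dT and 1214 of 3429 in Bio. For a second portion they gave 1455 of 6263 and 775 of 3429. DESeq2 was not run for these tests.

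The complex V genes were near the limit of detection. MT-ATP6, the subunit that forms the proton path of the ATP synthase, had 1852 counts in 56 of 102 libraries. It was at 0 in 16 of 48 in-screen dT and 30 of 48 in-screen Bio libraries, and the highest single libraries, run 3 of YM115_DMSO in dT (232 counts) and run 1 of YM115_YM115 in Bio (219 counts), held 28.3% and 25.1% of the screen's counts. MT-ATP8, a small subunit of the same complex, had 135 counts in 17 of 102 libraries. MT-ATP8 ends inside MT-ATP6, so its count need not give the level of a separate messenger. In-screen it was counted in 6 of 48 dT libraries (19 counts, at most 7 in 1) and in 7 of 48 Bio libraries. A count of 0 allows up to 3 counts, and this is 3.95 to 23.6 CPM in dT and 3.85 to 168 CPM in Bio, which covers counting error only. MT-ATP6 was tested for each drug and passed in none of the 6 fits, and MT-ATP8 did not pass the filter on low counts there. It was tested without that filter in both screens, and in Bio with log2 total counts as a covariate, and was not called.

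In the DMSO libraries made separately, the 6 genes spread widely among replicates. In dT, MT-CO1 had 9149, 105575 and 3471 CPM in controls 1, 2 and 3, against 19354, 20836 and 21748 in DMSO_DMSO of the screen. MT-CYB had 3967, 52495 and 1170 CPM there, against 3215, 4038 and 5350. In Bio, MT-CO1 had 7023, 74843 and 80608 CPM in the separate controls, against 6168, 14452 and 16735 in the screen, and MT-CO3 5316, 45463 and 57984 against 14736, 12598 and 5868. For these genes 1 control in dT and 2 in Bio lay far above the in-screen values, and the others within or below them.

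The make-up of the mitochondrial counts differed as well. The 6 genes took 19.0%, 70.5% and 2.14% of MT- counts in the separate dT controls, where MT-RNR2 took 73.1%, 9.68% and 97.0%, and 40.2%, 67.2% and 70.6% in the separate Bio controls. In the fit of all 51 libraries of a screen, 0 of 5 genes passed in dT (2 unadjusted, background 0.116%) and 0 of 6 in Bio (3 unadjusted, background 0.0432%) with edgeR. Of all genes tested, 1118 of 6917 in dT and 1125 of 4631 in Bio had an unadjusted p under 0.05. The fitted log2 differences, separate minus in-screen, were 2.71 for MT-CYB (SE 0.659, adjusted p = 0.0917) and 1.28 for MT-CO1 (SE 0.443, adjusted p = 0.295) in dT. In Bio they were 2.47 for MT-CO1, 2.59 for MT-CYB and 1.74 for MT-CO3 (adjusted p = 0.189 for each). The medians over all genes tested were 3.39 in dT and 5.63 in Bio, so each of these values lay below the median gene. The separate controls had 7410 to 10361 detected genes in dT and 5501 to 7058 in Bio. In-screen DMSO_DMSO had 2639 to 2967 and 1071 to 1538, while 6917 and 4631 genes were tested. The medians therefore include many genes without a count in those in-screen libraries, and are not the shift of a well-counted gene. Between the screens, in-screen DMSO_DMSO gave 0 of 6 genes (1 unadjusted, background 0.0223%, beside 978 of all 8980 genes unadjusted). MT-CO1 was 1.19 higher in dT on the log2 scale (SE 0.432, adjusted p = 0.431, edgeR), and the screen and its runs cannot be told apart there.

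**Figure D5:**
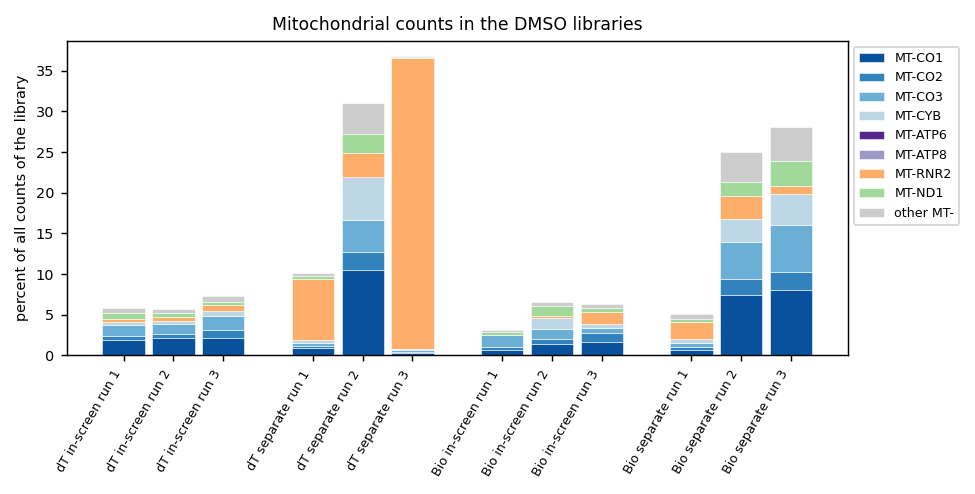
Percent of all counts of a library taken by each of the 6 genes, by MT-RNR2, MT-ND1 and the other genes with an MT- symbol, stacked, in the in-screen DMSO_DMSO and separate DMSO libraries of both screens, 1 bar per run. Controls 2 of dT and 2 and 3 of Bio hold large shares of MT-CO1, MT-CO3 and MT-CYB, whereas control 3 of dT is 97.0% MT-RNR2 within its mitochondrial counts.

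The genes were only loosely tied to each other across libraries. Over 48 in-screen dT libraries, the Pearson correlation of log2(CPM + 10) centred within run was 0.592 for MT-CO1 and MT-CYB, 0.433 for MT-CO1 and MT-CO2, 0.367 for MT-CO2 and MT-CYB, 0.272 for MT-CO3 and MT-CYB, 0.221 for MT-CO1 and MT-CO3 and 0.1002 for MT-CO2 and MT-CO3. Over 44 Bio libraries the value for MT-CO1 and MT-CYB was 0.340 and that for MT-CO1 and MT-CO3 -0.158. The 3 lowest values in dT were those with MT-CO3. The genes most like the sum of the 6 in dT, among the 558 genes detected in 90% of libraries or more, were FLNA (0.535), FTH1 (0.531), FTLP3 (0.518), FTL (0.485) and MTCO1P40 (0.479), the last a nuclear copy of MT-CO1. In Bio, among 202 genes, they were PFN1 (0.436), RPL12P13 (0.420), GAPDH (0.417), RPS24P19 (0.396) and YBX1P10 (0.374). These are descriptions over points that share library, depth and drug.

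Among other genes of the same pathway, few passed. Of the mitochondrial complex I genes, 1 of 6 tested was lower with YM115 in dT, MT-ND1 (log2 fold change -0.80, adjusted p = 2.0e-06, edgeR). Of the 2 mitochondrial ribosomal RNAs, MT-RNR2 was lower with imatinib in dT (-0.84, adjusted p = 0.0160). Of the nuclear complex III genes, 1 of 8 tested was higher with YM115 in dT, UQCRQ (0.64, adjusted p = 0.00293). In Bio, trametinib gave 1 of 10 nuclear complex V genes, ATP5MG (7.07, SE 1.55, adjusted p = 0.00648), and 1 of 7 nuclear complex IV genes, COX5A (3.69, adjusted p = 0.0483), both higher. ATP5MG was counted in 3 of 20 libraries with trametinib and 4 of 24 without, and COX5A in 7 of 20 and 2 of 24. In the other combinations of drug and screen none of the nuclear complex III, IV or V genes passed, and neither did any gene of the lists for mitochondrial transcription and RNA handling or for translation and assembly of these complexes. Among the K562 markers HBG2, a fetal globin gene, was higher with YM115 in both screens, by 0.58 in dT (adjusted p = 6.4e-06) and by 0.84 in the Bio screen (adjusted p = 5.8e-04).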

How the data were processed

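Libraries of K562 cells after 12 h in droplets were measured by 3′ RNA sequencing. The table deposited by the authors holds raw counts of reads for each gene, not normalised, under Ensembl identifiers. The submitters' processing notes name STAR 2.4.2a and GRCh38. The annotation used for counting, the use of strand and any collapse by molecular identifiers were not given in the sources used here. A symbol was found for 24539 of 24965 identifiers, and 0 columns belonged to other samples. Libraries were grouped by their labels.

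CPM was computed from the total count of a library. Each screen was fitted in R 4.3.3 with glmQLFit and glmQLFTest of edgeR 4.0.16, after filterByExpr on the design and TMM scaling, with 3 drug terms and run as a block, because the study treated the replicate as a batch. All p-values of the quasi-likelihood test of edgeR were adjusted by Benjamini-Hochberg over the genes tested, and 0.05 was the threshold. A further fit used the log of the total of MT- counts as the offset. For the separate controls, all 51 libraries of a screen were fitted by condition and run, with a control's number as its run. DESeq2 1.42.0 was an alternative test. In simulated counts for 3792 genes of the dT fit, 68.4% of 2-fold and 100% of 4-fold changes were recovered with 2.45% false calls. For 1728 genes of the Bio fit the values were 65.3%, 100% and 1.81%. The simulation gave all genes the same spread and no run effect. Its rates describe that setting and not the error rate of the calls reported here. Residuals of same-run libraries had a mean correlation of 0.0229 in dT and 0.0250 in Bio, and 0.833% and 4.32% of those pairs were over 0.1. These are means over many genes and do not settle whether run numbers pair libraries. In Bio the share of MT- counts was lower in run 1 than in run 2 for every drug pair, with 3.11% and 6.61% in DMSO_DMSO. Of 102 replicate pairs 0 held identical counts, and chi-square over its degrees of freedom was at least 5.55.

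The members, the lists and the tests were chosen with earlier results of these data known. Named were all 6 genes, genes of the other lists that passed, the 5 genes most like their sum in each screen, and the 4 nuclear copies with most counts. Log2 fold changes were printed where the unadjusted p was under 0.1 or the drug was YM115 and the gene MT-CO1 or MT-CO3, a choice made after the values were seen, and were left out for MT-ATP6, whose counts lay in few libraries. Positions and sequences came from GENCODE release 29 on GRCh38, and windows of 59 bases were matched to all its transcripts. Other tools were Python 3.11.15, numpy 2.4.6, pandas 2.3.3, matplotlib 3.10.9 and Biopython 1.88.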

Additional observations from a re-analysis of the deposited data

How the results depend on the processing

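Of 124 counts of called genes under alternative settings, 103 stayed within 1.5 times the value given and 21 moved. Most of the 103 were counts of 0 that stayed at 0, and all 21 that moved belonged to results with a call. In dT the setting of all in-screen libraries is the main fit itself, since no dT library was left out. The 103 are therefore no measure of how stable the calls were. For imatinib in dT the 2 calls became 1 when scaling used genes outside the MT- set alone, and 0 with DESeq2's size factors, DESeq2's test, no filter on low counts, no replicate block, single-drug libraries alone or without DMSO_DMSO, and 0 to 1 when a run was left out. For YM115 in dT the 1 call became 2 with DESeq2's size factors or test and 0 with no filter or single-drug libraries alone. Relative to mitochondrial counts the 1 call for YM115 in dT became 0 without the replicate block and 0 to 1 when a run was left out. The 1 call by listed position in Bio became 0 without any 1 run and 0 without run 2 of Imatinib_DMSO. Of 188 alternative values of the fold changes printed singly in the report 161 kept their direction and side of the threshold, 23 lost a call, 2 gained one and 2 turned: MT-CO1 with YM115 in Bio was -0.039 with DESeq2's size factors and with its test. Of 244 alternative values of the 28 fold changes given as a range, 59 turned. The settings without DMSO_DMSO, without that library and the leave-outs of runs in the position and screen fits were chosen after seeing the data.

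The number of genes called with imatinib, trametinib and YM115 came to 113, 54 and 103 for dT and to 42, 39 and 48 for Bio. Fits with no replicate block called 12, 9 and 23 in dT and 4, 6 and 12 in Bio, those without a low-count filter 510, 468 and 503 and 168, 182 and 203, with log2 total counts as a covariate 272, 208 and 310 and 218, 153 and 198, without DMSO_DMSO 27, 8 and 54 and 11, 9 and 24, and in single-drug libraries 0. DESeq2's test gave 149, 94 and 131 in dT and 104, 77 and 112 in Bio, and all Bio in-screen libraries gave 70, 60 and 86. Leaving out a run gave 30 to 46, 12 to 21 and 37 to 59 in dT and 18 to 27, 10 to 16 and 14 to 33 in Bio. Of the genes called with YM115 in dT, 60 of 103 were higher, against 52 of 114 with DESeq2's size factors, and with trametinib in Bio 26 of 39 against 14 of 29. The causes were not tested.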
